A study of Mus musculus with 6 samples.

Results

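The inhibitory checkpoint genes of tumor-infiltrating Tregs were examined in mice whose Tregs kept or were set to delete *Nr3c1*, the gene of the glucocorticoid receptor (GR). They are 10 genes chosen by name: 6 inhibitory receptors (*Ctla4*, *Pdcd1*, *Lag3*, *Havcr2*, *Tigit* and *Cd96*), 2 surface ligands (*Cd274* and *Cd200*) and 2 transcription factors of the TOX family (*Tox* and *Tox2*). All 10 have a value in the table of 12153 genes. Expression was measured by RNA-Seq in 6 libraries of CD4+CD25+ Tregs sorted at day 15 from B16.F10 melanomas grown in mice. The 3 control libraries came from mice labeled Nr3c1-flox and the 3 *Nr3c1* Foxp3-Cre libraries from mice labeled Nr3c1-flox_Foxp3-YFP/Cre. In the latter, a Cre driven by the *Foxp3* promoter deletes the floxed *Nr3c1* in Foxp3-expressing cells, while both groups carry the floxed allele and the same tumor. The labels give staining for CD45, CD4 and CD25, whereas the study's methods give a gate on Foxp3-YFP, and the labels name that reporter only for the *Nr3c1* Foxp3-Cre mice. A difference in the sort or in the Cre allele itself and the deletion of *Nr3c1* cannot be told apart. The methods also give that female and male mice were combined. The labels do not say which libraries came from separate mice, so p-values measure the spread between libraries.

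Values are log2 CPM, where CPM is the read count scaled to library size, quantile normalized by the authors, so that 1 unit is a doubling, and errors on group means are SD over 3 libraries. Groups were compared with limma on all genes, and adjusted p-values are Benjamini-Hochberg values over all 12153 genes. An adjusted p under 0.05 was reached by 7 genes, or 0.0576% of those tested, an unadjusted p under 0.05 by 396, or 3.26%, and groups without overlap were seen for 901, or 7.41%. As a check of the deletion, *Nr3c1* was at 7.15, 7.59 and 6.88 in control Tregs and at 6.14, 5.45 and 5.90 in *Nr3c1* Foxp3-Cre Tregs (log2 fold change -1.38, standard error 0.21, adjusted p = 0.120). Of 3 GR targets, *Tsc22d3* was lower by a log2 fold change of -1.56 (adjusted p = 0.0342), while *Dusp1* was at -0.56 (adjusted p = 0.652) and *Fkbp5* at -0.16 (adjusted p = 1.0). All 10 Treg and T cell markers had values, among them *Foxp3*, from 3.39 to 4.42 in control and from 3.50 to 4.47 in *Nr3c1* Foxp3-Cre Tregs. The mean of *Foxp3* was at percentile 34.6 of all genes, and the share of sorted cells that express it was not tested. Of these 10 markers 0 passed the adjusted threshold, while *Ccr8*, a chemokine receptor of tumor Tregs, was lower without overlap (log2 fold change -0.53, limma adjusted p = 1.0) and *Ikzf4* had a higher mean with overlap (0.43, limma adjusted p = 1.0). Genes of other cells were also present. The 7 of 7 melanocyte markers summed to between 4548 and 12200 CPM in control libraries and between 5057 and 12474 in *Nr3c1* Foxp3-Cre libraries. The 10 of 10 macrophage markers summed to between 411 and 605 and between 294 and 589 CPM, and all 10 had a lower mean in the *Nr3c1* Foxp3-Cre group, with 0 of them at an unadjusted p under 0.05. The 6 of 7 fibroblast and endothelial markers with a value summed to between 147 and 256 CPM in control and between 108 and 125 in *Nr3c1* Foxp3-Cre libraries, which did not overlap. Of these 6 markers, 5 had a lower mean and 1 a higher one. The collagen genes *Col1a1* (log2 fold change -1.87, limma adjusted p = 0.120) and *Col1a2* (-1.69, limma adjusted p = 0.271) were lower without overlap. The endothelial marker *Pecam1* was higher without overlap (log2 fold change 0.28). Of the dendritic cell markers 4 of 6 had a value and of the CD8 T and NK cell markers 2 of 6, and neither list exceeded 56.0 CPM in sum. *Cd8a* and *Ncr1* were among those without one.

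Inhibitory receptors restrain T cells after activation. CTLA-4 takes CD80 and CD86 away from the costimulatory receptor CD28, PD-1 binds PD-L1 and PD-L2, LAG-3 binds MHC class II, TIM-3 has galectin-9 among its ligands, and TIGIT and CD96 share the ligand PVR (CD155) with the activating receptor CD226. Several of their genes can be raised by T cell receptor signals through NFAT and its partners. Tregs in tumors carry many of these receptors, with CTLA-4 serving as part of the suppressive machinery. TOX is a nuclear factor that sustains the program of chronically stimulated, or exhausted, T cells.

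The start regions of the receptor genes were read from RefSeq (build GRCm38.p6, equal to mm10) because GR acts by binding DNA. Windows of 250 bases before and 50 after the annotated start were found for 8 of the 10 genes, not for *Lag3* and *Tox*. A half-site of the GR element, AGAACA on either strand, was searched, and it is shown in capitals (it is also the arm of the full element). The windows below are those of the receptors *Ctla4*, *Pdcd1* and *Tigit*, whose levels were lower on average in *Nr3c1* Foxp3-Cre Tregs, and of *Cd96*, whose level was nearly equal in both groups.
Ctla4, chr1:60908775-60909074, plus strand: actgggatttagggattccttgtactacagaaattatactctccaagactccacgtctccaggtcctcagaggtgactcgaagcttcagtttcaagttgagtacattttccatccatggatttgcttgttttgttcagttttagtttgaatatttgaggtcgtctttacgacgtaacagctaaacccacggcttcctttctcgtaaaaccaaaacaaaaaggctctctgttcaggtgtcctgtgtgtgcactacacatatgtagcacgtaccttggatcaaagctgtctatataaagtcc
Pdcd1, chr1:94052504-94052803, minus strand: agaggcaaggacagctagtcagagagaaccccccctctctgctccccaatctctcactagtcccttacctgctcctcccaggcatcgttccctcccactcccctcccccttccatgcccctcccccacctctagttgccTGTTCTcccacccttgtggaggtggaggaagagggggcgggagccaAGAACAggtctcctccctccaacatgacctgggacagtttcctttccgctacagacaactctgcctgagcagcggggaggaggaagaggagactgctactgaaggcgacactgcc
Tigit, chr16:43664135-43664434, minus strand: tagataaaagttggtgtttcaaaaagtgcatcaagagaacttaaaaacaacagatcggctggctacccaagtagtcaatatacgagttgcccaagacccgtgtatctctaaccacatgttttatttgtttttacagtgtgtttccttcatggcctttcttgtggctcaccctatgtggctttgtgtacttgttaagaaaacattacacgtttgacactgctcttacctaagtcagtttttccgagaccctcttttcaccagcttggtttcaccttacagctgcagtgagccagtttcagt
Cd96, chr16:46120199-46120498, minus strand: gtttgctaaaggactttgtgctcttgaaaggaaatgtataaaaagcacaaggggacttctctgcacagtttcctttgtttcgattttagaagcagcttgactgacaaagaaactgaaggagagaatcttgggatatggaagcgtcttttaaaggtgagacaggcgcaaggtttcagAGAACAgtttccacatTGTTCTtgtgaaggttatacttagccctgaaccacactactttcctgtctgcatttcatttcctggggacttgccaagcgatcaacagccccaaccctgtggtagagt

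*Pdcd1* holds 2 half-sites, which begin 111 and 65 bases before the start, and *Cd96* holds 2, which begin 74 and 58 bases before it. The windows of the other matched genes, *Ctla4*, *Tigit*, *Havcr2*, *Cd200*, *Cd274* and *Tox2*, hold 0. The *Ctla4* window lies inside the gene as annotated in GENCODE M21, which begins at 60887000, and that outer start was not searched. Over all 32851 promoter windows of 300 bases, 19.0% hold at least 1 half-site. The full palindrome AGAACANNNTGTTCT is in 0 of the members' windows and in 0.00913% of all windows. The core NFAT motif GGAAA, on either strand, occurs 5 times in *Cd96*, 2 times each in *Pdcd1*, *Tigit* and *Cd274* and 1 time in *Ctla4* and in 2 overlapping windows of the 5 for *Tox2*, and 61.3% of all windows hold it. The half-site is thus present in a receptor gene with a lower mean, *Pdcd1*, and in one with almost no difference, *Cd96*. These matches describe letters in short windows and say nothing of binding.

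Expression of the 6 inhibitory receptors was lower on average in *Nr3c1* Foxp3-Cre than in control Tregs for each of the genes, but none of the differences passed the adjusted threshold (adjusted p = 1.0 for all 6, limma). At an unadjusted p under 0.05, 1 of the 10 checkpoint genes, *Lag3*, differed, beside 3.26% of all genes. *Lag3* was also the 1 gene of the 10 whose groups did not overlap, beside 7.41% of all genes, of which 3.73% of all genes were lower and 3.69% higher, and 0 of the 10 were higher without overlap. The median log2 fold change was -0.34 over the 6 receptors and -0.10 over all 10 genes, beside -0.00145 over all genes tested. Leaving out 1 library at a time moved the median over the 10 genes between -0.26, without *Nr3c1* Foxp3-Cre library 3, and -0.028, without control library 2, and it was -0.19 without control library 1, -0.20 without control library 3 and -0.19 without *Nr3c1* Foxp3-Cre library 1. Because the samples are bulk RNA, fewer cells that express a gene and less of its RNA per cell cannot be told apart.

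**Figure D1:**
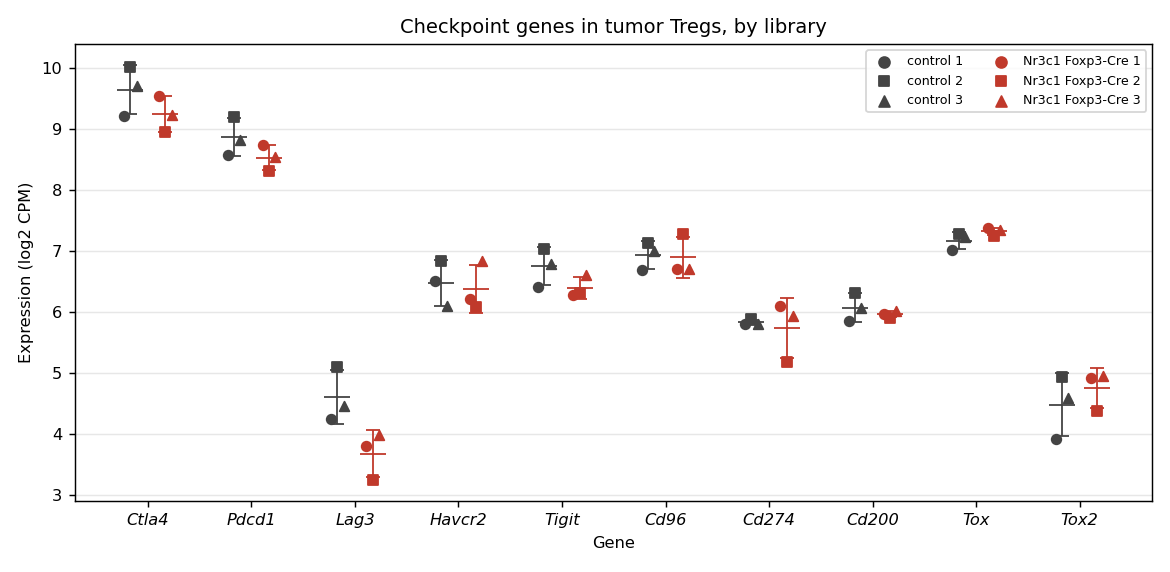
Expression of the 10 checkpoint genes (log2 CPM, vertical axis) in each of the 6 Treg libraries, with control libraries in gray and *Nr3c1* Foxp3-Cre libraries in red, symbols for the replicate number, and the bar giving the group mean and SD (n = 3). Only for *Lag3* did all *Nr3c1* Foxp3-Cre libraries lie below all control libraries, and *Tox* had the tightest values.

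*Lag3* (ENSMUSG00000030124.2, chromosome 6 of mm10 from 124904361 to 124911705, minus strand) encodes a CD4-like receptor for MHC class II. It was at 4.25, 5.10 and 4.46 log2 CPM in control libraries and at 3.80, 3.25 and 3.98 in *Nr3c1* Foxp3-Cre libraries. All 3 *Nr3c1* Foxp3-Cre libraries lay below all 3 control libraries, with control library 2 the highest and *Nr3c1* Foxp3-Cre library 2 the lowest. The log2 fold change was -0.93 (standard error 0.27, 95% interval -1.54 to -0.31, unadjusted p = 0.00742, limma adjusted p = 1.0), or 1.90-fold lower in *Nr3c1* Foxp3-Cre Tregs. On the linear scale the geometric means were 24.3 CPM (control) and 12.8 CPM (*Nr3c1* Foxp3-Cre). Without control library 2 the log2 fold change was -0.68, and without *Nr3c1* Foxp3-Cre library 2 it was -0.71.

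*Ctla4* (ENSMUSG00000026011.13, chromosome 1 from 60887000 to 60915832, plus strand) was at 9.22, 10.02 and 9.71 log2 CPM in control and at 9.55, 8.95 and 9.23 in *Nr3c1* Foxp3-Cre libraries. Control libraries 2 and 3 were above every *Nr3c1* Foxp3-Cre library, while control library 1 was below *Nr3c1* Foxp3-Cre libraries 1 and 3. The groups differed by -0.40 on the log2 scale (standard error 0.21, 95% interval -0.88 to 0.068, limma adjusted p = 1.0). *Pdcd1* (ENSMUSG00000026285.7, chromosome 1 from 94038305 to 94052553, minus strand), which encodes PD-1, was at 8.58, 9.21 and 8.82 in control and at 8.74, 8.32 and 8.54 in *Nr3c1* Foxp3-Cre libraries. The order of the libraries was the same as for *Ctla4*, except that control library 1 was also above *Nr3c1* Foxp3-Cre library 3. The log2 fold change of *Pdcd1* was -0.34 (standard error 0.17, 95% interval -0.71 to 0.040, limma adjusted p = 1.0).

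*Tigit* (ENSMUSG00000071552.5, chromosome 16 from 43648867 to 43664146, minus strand) was at 6.42, 7.04 and 6.80 log2 CPM in control libraries. In *Nr3c1* Foxp3-Cre libraries it was at 6.29, 6.31 and 6.61. A single pair was out of order, since *Nr3c1* Foxp3-Cre library 3 exceeded control library 1. *Nr3c1* Foxp3-Cre Tregs differed from control by -0.35 on the log2 scale (standard error 0.16, 95% interval -0.72 to 0.019, limma adjusted p = 1.0), a size close to those of *Ctla4* and *Pdcd1*.

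*Cd96*, the other receptor for PVR (ENSMUSG00000022657.9, chromosome 16 from 46035657 to 46120251, minus strand), was at 6.69, 7.13 and 7.0 log2 CPM in control and at 6.71, 7.28 and 6.70 in *Nr3c1* Foxp3-Cre libraries. The groups overlapped almost entirely, with *Nr3c1* Foxp3-Cre library 2 the highest of all 6. Its log2 fold change was -0.039 (standard error 0.18, 95% interval -0.44 to 0.36). *Havcr2* (ENSMUSG00000020399.14, chromosome 11 from 46454935 to 46481255, plus strand), which encodes TIM-3, was at 6.51, 6.83 and 6.09 in control and at 6.22, 6.08 and 6.83 in *Nr3c1* Foxp3-Cre libraries. Both groups covered the same range, and the log2 fold change was -0.099 (standard error 0.23, 95% interval -0.61 to 0.41). TIM-3 is also found on macrophages, whose markers had lower means in *Nr3c1* Foxp3-Cre libraries. The part of those cells in the *Havcr2* value was not tested.

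*Cd274* (ENSMUSG00000016496.7, chromosome 19 from 29367455 to 29388095, plus strand) encodes PD-L1, a ligand of PD-1 that T cells, myeloid cells and tumor cells can all display. It was at 5.81, 5.88 and 5.80 log2 CPM in control libraries, a spread of 0.045 (SD, n = 3), and at 6.10, 5.19 and 5.94 in *Nr3c1* Foxp3-Cre libraries, a spread of 0.49 (SD, n = 3). A single *Nr3c1* Foxp3-Cre library, number 2, was below the controls and the other two were above them, and the log2 fold change was -0.092 (standard error 0.21, 95% interval -0.57 to 0.39). Without *Nr3c1* Foxp3-Cre library 2 it was 0.19. An antisense gene without a value in the table shares exon sequence with *Cd274*, and reads of the pair cannot be told apart without strand.

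*Cd200* (ENSMUSG00000022661.14, chromosome 16 from 45382135 to 45409053, minus strand) encodes the ligand of the inhibitory receptor CD200R1. It was at 5.85, 6.31 and 6.07 in control and at 5.97, 5.91 and 6.01 in *Nr3c1* Foxp3-Cre libraries. The *Nr3c1* Foxp3-Cre values fell within the range of the controls (log2 fold change -0.11, standard error 0.13, 95% interval -0.41 to 0.19). For *Cd200r1* itself the difference was 0.017 on the log2 scale (standard error 0.17).

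The TOX factors were the 2 checkpoint genes with a higher mean in *Nr3c1* Foxp3-Cre Tregs, and neither difference passed the test. *Tox* (ENSMUSG00000041272.11, chromosome 4 from 6686353 to 6991557, minus strand) was at 7.01, 7.28 and 7.23 log2 CPM in control and at 7.37, 7.25 and 7.34 in *Nr3c1* Foxp3-Cre libraries. Control library 1 was the lowest of the 6, and *Nr3c1* Foxp3-Cre library 2 was the 1 library of its group that did not exceed every control. The log2 fold change was 0.15 (standard error 0.10, 95% interval -0.085 to 0.38, limma adjusted p = 1.0). *Tox* shares exon sequence with an antisense gene that has no value in the table.

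*Tox2* (ENSMUSG00000074607.11, chromosome 2 from 163203125 to 163324170, plus strand), a related factor with the same kind of DNA-binding domain, was at 3.91, 4.93 and 4.60 in control and at 4.92, 4.38 and 4.96 in *Nr3c1* Foxp3-Cre libraries. The groups overlapped, with control library 1 far below the rest. The log2 fold change was 0.27 (standard error 0.27, 95% interval -0.33 to 0.88). For *Tox4*, another member of the family, the difference was 0.034 on the log2 scale (standard error 0.098).

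**Figure D2:**
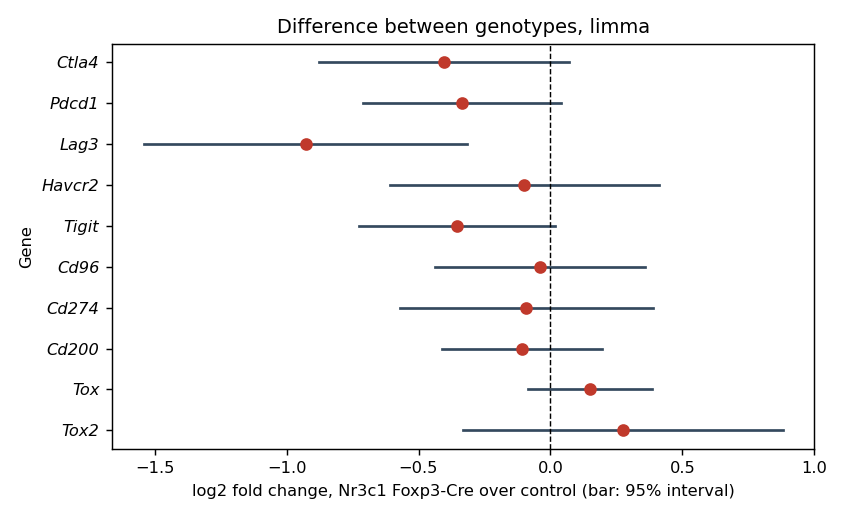
Log2 fold change of *Nr3c1* Foxp3-Cre over control Tregs (horizontal axis) for the 10 checkpoint genes, with the 95% interval from limma as a bar. The interval of *Lag3*, from -1.54 to -0.31, was the only one that did not include 0 before adjustment over all genes.

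When levels were divided by the length of the longest coding transcript, *Ctla4* was the highest of the 10 genes, at a mean of 8.5 log2 CPM per kb over the 6 libraries. *Pdcd1* followed at 7.75, *Tigit* at 6.70, *Cd96* at 5.79, *Tox* at 5.26, *Havcr2* at 4.98, *Cd200* at 4.79, *Cd274* at 3.93, *Lag3* at 3.14 and *Tox2* at 3.06. *Ctla4* exceeded *Pdcd1* in 6 of 6 libraries, by 0.74 ± 0.11 (SD of the differences, n = 6 libraries), although the ranges of both genes overlapped. *Tox* and *Havcr2*, and *Havcr2* and *Cd200*, could not be ordered, since the higher of each pair led in 3 and 4 of the 6 libraries. *Lag3* was above *Tox2* in 3 of 3 control libraries, and below it in 3 of 3 *Nr3c1* Foxp3-Cre libraries. *Lag3* lay between 2.25 and 4.10 on this scale, the widest range of the 10 genes, and *Tox*, between 5.03 and 5.39, the narrowest. With the median transcript length in place of the longest, *Lag3* and *Tox2* changed places in the mean over all libraries, *Lag3* led in 2 of 3 control and 0 of 3 *Nr3c1* Foxp3-Cre libraries, and the other ranks were the same.

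The receptors varied between libraries of one genotype more than the median gene did. The pooled SD within groups was 0.36 on the log2 scale for *Ctla4*, 0.27 for *Pdcd1*, 0.42 for *Lag3*, 0.39 for *Havcr2*, 0.26 for *Tigit* and 0.29 for *Cd96*, beside a median of 0.22 over all genes. Among the other genes it was 0.43 for *Tox2*, 0.35 for *Cd274*, 0.17 for *Cd200* and 0.11 for *Tox*. Among the controls, library 1 was the lowest and library 2 the highest for 8 of the 10 genes, an order held by 26.0% of all genes. Among *Nr3c1* Foxp3-Cre libraries, library 2 was the lowest for 8 of the 10, as for 36.8% of all genes.

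The same libraries differed in their content of tumor RNA. The mean of the 7 melanocyte markers was 10.09, 8.63 and 9.68 log2 CPM in control libraries 1 to 3 and 9.50, 10.09 and 8.73 in *Nr3c1* Foxp3-Cre libraries 1 to 3. Control library 1 and *Nr3c1* Foxp3-Cre library 2, the lowest of their groups for most checkpoint genes, thus held the most melanocyte RNA. The mean of the T cell genes *Cd3e* and *Cd4* was lowest in these libraries too, at 8.67 and 8.76, beside 8.96 to 9.21 in the other libraries. When the fit included the melanocyte marker mean, *Lag3* differed by -0.94 (unadjusted p = 0.000133, limma adjusted p = 0.0674). In that fit 4 of the 10 genes, *Ctla4*, *Pdcd1*, *Lag3* and *Tigit*, had an unadjusted limma p under 0.05, beside 682 of all 12153 genes. When the fit included the macrophage marker mean instead, *Lag3* differed by -1.28 (limma adjusted p = 0.0985). Then 5 of the 10 genes, *Ctla4*, *Pdcd1*, *Lag3*, *Tigit* and *Cd274*, had an unadjusted p under 0.05, beside 8.44% of all genes in that fit. The macrophage marker mean was 5.16, 4.56 and 4.89 in control and 4.10, 5.07 and 4.22 in *Nr3c1* Foxp3-Cre libraries. It was thus partly aligned with genotype, and the median log2 fold change over the 10 genes was -0.34 in that fit. None of the 10 passed the adjusted threshold in either fit.

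**Figure D3:**
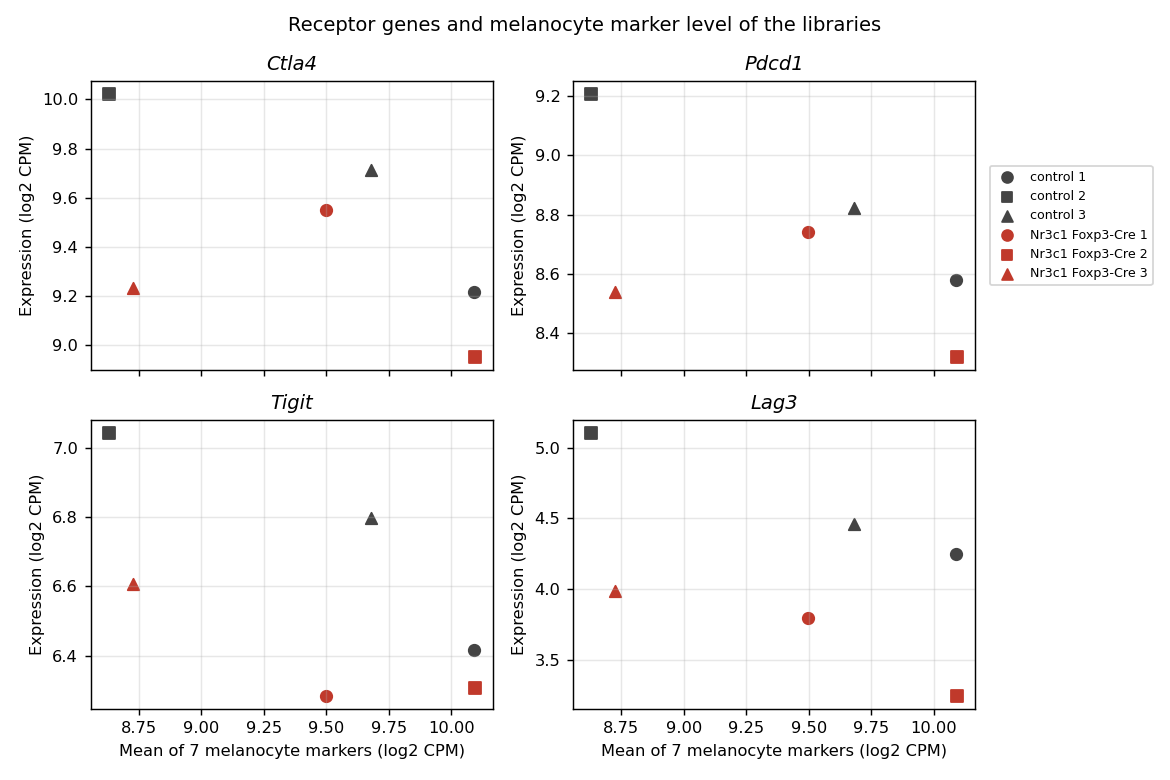
Expression of *Ctla4*, *Pdcd1*, *Tigit* and *Lag3* (log2 CPM, vertical axes) against the mean of 7 melanocyte markers (log2 CPM, horizontal axes), 1 point per library, with control in gray and *Nr3c1* Foxp3-Cre in red. The library with the least melanocyte RNA, control 2, was the highest in all 4 panels, and *Nr3c1* Foxp3-Cre 2, with the most, was the lowest for 3 of the 4 genes. *Nr3c1* Foxp3-Cre 3 held nearly as little as control 2 (8.73 beside 8.63) but lay below all controls for *Lag3*. Control 1 held nearly as much as *Nr3c1* Foxp3-Cre 2 but lay above all *Nr3c1* Foxp3-Cre libraries for *Lag3*.

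Whether tumor RNA lowered the receptor values was not tested. Expression was also set against T cell RNA in each library, by subtracting the mean of *Cd3e* and *Cd4*, a scale chosen after the values were seen. *Ctla4* was then at 0.55, 0.81 and 0.61 in control and at 0.39, 0.19 and 0.27 in *Nr3c1* Foxp3-Cre libraries, without overlap. *Pdcd1* was at -0.092, -0.0074 and -0.28 in control and at -0.42, -0.44 and -0.42 in *Nr3c1* Foxp3-Cre libraries, also without overlap. *Tigit* was at -2.25, -2.17 and -2.30 and at -2.87, -2.46 and -2.36, and *Lag3* at -4.42, -4.11 and -4.64 and at -5.36, -5.52 and -4.98, each with all *Nr3c1* Foxp3-Cre libraries below the controls. These 4 receptors of 10 genes were the ones lower without overlap, beside 1.71% of all genes on the same scale. Over all genes this share was 3.73% before the subtraction, and a share over T cell genes alone was not computed. The other 6 genes overlapped, and none was higher without overlap, beside 3.28% of all genes. The differences were -0.37 for *Ctla4*, -0.30 for *Pdcd1*, -0.32 for *Tigit* and -0.89 for *Lag3*, and in limma on this scale none had an adjusted p under 0.05. The unadjusted limma p on this scale was 0.0720 for *Ctla4*, 0.124 for *Pdcd1*, 0.149 for *Tigit* and 0.00523 for *Lag3*. Before the subtraction it was 0.0739 for *Pdcd1* and 0.0604 for *Tigit*.

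**Figure D4:**
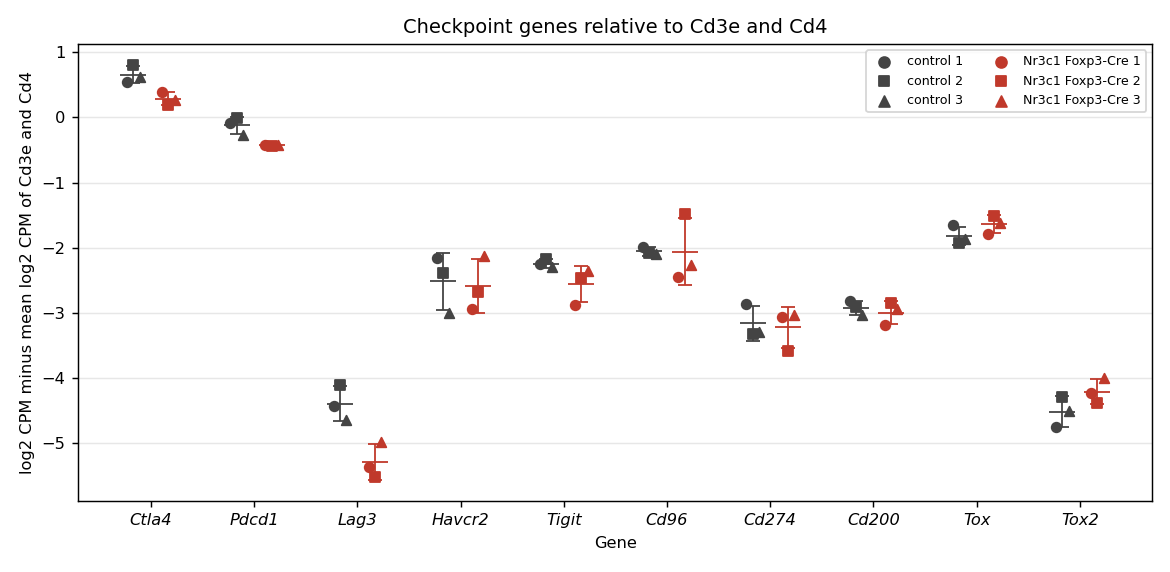
The 10 checkpoint genes in each library after the mean log2 CPM of *Cd3e* and *Cd4* was subtracted (vertical axis, log2), with group means and SD (n = 3) as bars, control in gray and *Nr3c1* Foxp3-Cre in red. On this scale *Ctla4*, *Pdcd1*, *Tigit* and *Lag3* were lower in all 3 *Nr3c1* Foxp3-Cre libraries than in all 3 control libraries.

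Genes of the set were next compared with competitors, gene neighbors or related genes inside each library, as a log2 ratio. The 8 pairs were chosen after the values were seen, and a share without overlap over all gene pairs was not computed. With 3 libraries against 3, an exact two-sided permutation test cannot go below p = 0.1. The ratio of *Tigit* to *Cd226*, the activating receptor for the same ligand, was 1.05, 1.29 and 1.05 in control and 0.77, 0.63 and 0.90 in *Nr3c1* Foxp3-Cre Tregs. The groups did not overlap, and the difference was -0.36 (exact permutation p = 0.1, adjusted over the 8 pairs p = 0.2). The ratio of *Cd96* to *Cd226* differed by -0.049 (exact permutation p = 0.8, adjusted p = 0.914).

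*Ctla4* lies on chromosome 1 between *Cd28* and *Icos*, which encode costimulatory receptors of the same family, with gaps of 113.6 and 62.1 kb. The ratio of *Ctla4* to *Cd28* was 2.13, 2.38 and 2.37 in control and 2.14, 1.88 and 1.87 in *Nr3c1* Foxp3-Cre Tregs, with an overlap of 1 library (difference -0.33, exact permutation p = 0.2, adjusted p = 0.32). The ratio of *Ctla4* to *Icos* was 0.97, 1.20 and 1.29 and 0.93, 0.84 and 0.64, without overlap (difference -0.35, exact permutation p = 0.1, adjusted p = 0.2). The ratio of *Pdcd1* to *Icos*, which are neither competitors nor close neighbors, differed by -0.28, also without overlap and at the same p-values. It shares its denominator with the ratio of *Ctla4* to *Icos*. *Cd28* and *Icos* themselves had log2 fold changes of -0.074 and -0.053.

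*Lag3* lies 16.1 kb from *Cd4*, which differed by -0.021 (standard error 0.17). The ratio of *Lag3* to *Cd4* was -4.44, -4.22 and -4.63 in control and -5.44, -5.53 and -5.04 in *Nr3c1* Foxp3-Cre Tregs. The groups did not overlap and differed by -0.91 (exact permutation p = 0.1, adjusted p = 0.2). *Cd274* lies 22.8 kb from *Pdcd1lg2*, which encodes the other ligand of PD-1. Their ratio was 1.59, 1.32 and 1.35 and 1.71, 1.16 and 1.5 (difference 0.035, exact permutation p = 1.0). The ratio of *Cd200* to *Cd200r1* differed by -0.13 (exact permutation p = 0.3, adjusted p = 0.4). *Tigit*, *Cd200* and *Cd96* all lie on chromosome 16, with 1.72 Mb between *Tigit* and *Cd200* and 0.63 Mb between *Cd200* and *Cd96*, and had log2 fold changes of -0.35, -0.11 and -0.039.

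The wider pathway was followed in 5 lists that together name 73 genes, of which 67 have a value. None of the 67 had an adjusted p under 0.05, while 3 had an unadjusted p under 0.05, beside 3.26% of all genes, and 4 had groups without overlap, beside 7.41% of all genes. Both counts lie near those shares. In all, 35 had a higher and 32 a lower mean in *Nr3c1* Foxp3-Cre Tregs, and their median log2 fold change was 0.011.

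Of the 15 measured ligands and competing receptors, 8 had a higher and 7 a lower mean, and 0 passed the test (median 0.011). For the CTLA-4 ligands the log2 fold change was -0.16 for *Cd80* and -0.28 for *Cd86*. It was -0.13 for *Pdcd1lg2*, and for the TIGIT ligands 0.072 for *Pvr* and 0.23 for *Nectin2*. *Cd226* was at 5.37, 5.76 and 5.75 log2 CPM in control and at 5.51, 5.68 and 5.71 in *Nr3c1* Foxp3-Cre libraries (log2 fold change 0.011, standard error 0.14). *Lgals9*, which encodes the TIM-3 ligand galectin-9, was at 8.66, 8.56 and 8.49 in control and at 8.36, 8.47 and 8.46 in *Nr3c1* Foxp3-Cre libraries, lower without overlap but by a small amount (log2 fold change -0.14, standard error 0.092, limma adjusted p = 1.0).

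Of the 11 other inhibitory receptors measured, 8 had a higher and 3 a lower mean, with 0 called and a median log2 fold change of 0.043. The smallest unadjusted p-values were those of *Lair1*, a collagen receptor (log2 fold change -0.55, standard error 0.37), and *Lilrb4a* (0.34, standard error 0.25). Leaving out 1 library at a time gave values from -0.89 to -0.32 for *Lair1*, the ends being those without control libraries 2 and 1, and from 0.17 to 0.64 for *Lilrb4a*, without control libraries 1 and 2. Of 12 signaling partners 4 had a higher and 8 a lower mean (median -0.044), with the phosphatase gene *Ptpn11*, which acts downstream of PD-1, at -0.43 (standard error 0.29) and the adaptor gene *Grb2* at 0.16 (standard error 0.12). The value of *Ptpn11* was -0.79 without *Nr3c1* Foxp3-Cre library 1 and -0.23 without *Nr3c1* Foxp3-Cre library 2. Of 11 genes of receptor trafficking and turnover 5 had a higher and 6 a lower mean (median -0.045). The protease gene *Adam17*, whose product sheds LAG-3 from the surface, was at 0.16 (standard error 0.10), and *Fbxo38*, whose product marks PD-1 for degradation, at 0.18 (standard error 0.12).

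Of the 18 measured transcription factors 10 had a higher and 8 a lower mean, with a median log2 fold change of 0.062, and this list held the 3 pathway genes with an unadjusted p under 0.05. *Id2*, an inhibitor of E proteins that favors effector differentiation, was at 9.09, 9.64 and 9.22 log2 CPM in control and at 8.78, 8.47 and 8.64 in *Nr3c1* Foxp3-Cre libraries. The groups did not overlap, with a difference of -0.69 on the log2 scale (standard error 0.15, limma adjusted p = 0.544). With the melanocyte marker mean as a covariate it was -0.69 at a limma adjusted p of 0.0400, the only gene of the pathway lists to pass in that fit.

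*Nr4a1*, which T cell receptor signals induce and which works with TOX in exhausted T cells, was at 8.76, 8.96 and 9.18 log2 CPM in control and at 9.54, 9.40 and 9.30 in *Nr3c1* Foxp3-Cre libraries. All *Nr3c1* Foxp3-Cre libraries were above all controls (difference 0.45 on the log2 scale, standard error 0.12, limma adjusted p = 1.0). *Bach2*, a repressor that restrains effector genes, was low, at 1.45, 1.52 and 1.42 in control and at 2.31, 1.91 and 2.45 in *Nr3c1* Foxp3-Cre libraries. Its groups did not overlap either (difference 0.76 on the log2 scale, standard error 0.30, limma adjusted p = 1.0).

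**Figure D5:**
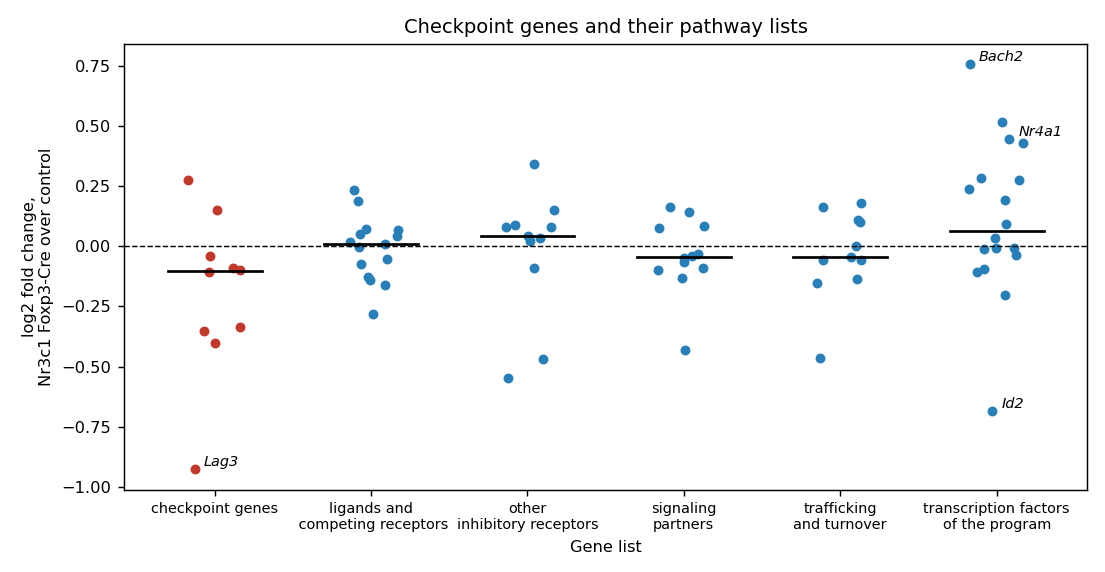
Log2 fold change of *Nr3c1* Foxp3-Cre over control Tregs (vertical axis) for the checkpoint genes and the 5 pathway lists, 1 point per gene, with a line at the median of each list and names for genes with an unadjusted p under 0.05. Of the 4 named genes *Lag3* and *Id2* were lower and *Bach2* and *Nr4a1* higher, and the medians lay between -0.10 and 0.062.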

How the data were processed

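Groups follow the genotype labels, with 3 control and 3 *Nr3c1* Foxp3-Cre libraries of sorted tumor Tregs. Per the study's methods, reads were trimmed with Cutadapt, aligned with STAR to mm10 and quantified with RSEM on GENCODE M21, and genes with low counts were removed. The authors then took log2 CPM and applied quantile normalization, and these are the values deposited. Read depth is therefore unknown, low genes such as *Lag3* are less precise, and the number of libraries limits all comparisons. The study weighted its limma model by read counts, which these values do not hold. Here limma 3.58.1 in R 4.3.3 was run with a mean-variance trend and genotype as the only term, and the code was tested on simulated data. Positions and transcript lengths came from GENCODE M21, promoter windows from RefSeq.

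The genes and lists were chosen with earlier results of these data known. Named genes are all members, 4 genes that check the deletion, direct ligands and competing receptors, and in each pathway list up to 4 genes with an unadjusted p under 0.05, or else the 2 with the smallest p. *Cd200r1*, *Icos*, *Tox4*, *Cd4*, *Ccr8*, *Ikzf4*, *Col1a1*, *Col1a2* and *Pecam1* were named after their values were seen. Alternatives were other variance models and weights, a filter and a floor on low values, log2(CPM + 1), other scalings, covariates, a replicate block and leaving out each library.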

Additional observations from a re-analysis of the deposited data

How the results depend on the processing

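None of the 10 checkpoint genes had an adjusted p under 0.05 in any of the 19 alternatives, and in those fits the lowest adjusted p was 0.0674, for *Lag3* with the melanocyte marker mean as a covariate. *Ctla4*, *Pdcd1*, *Lag3* and *Tigit* had a lower mean in *Nr3c1* Foxp3-Cre Tregs in all 19, and *Tox* a higher one. The log2 fold change of *Ctla4* lay between -0.69 and -0.22, that of *Pdcd1* between -0.55 and -0.17, that of *Tigit* between -0.52 and -0.21 and that of *Lag3* between -1.28 and -0.68, and each was smallest without control replicate 2. The median over the 10 genes was -0.34 with the macrophage marker mean as a covariate and lay between -0.26 and -0.028 without one replicate. The direction turned for *Havcr2* with sample quality weights (0.24), for *Cd96* (0.081), *Tox2* (-0.074), *Pvr* (-0.015) and *Cd226* (-0.023) with the macrophage marker mean, and for *Cd226* with sample quality weights (-0.091). Without one replicate, log2 fold changes ranged from -0.33 to 0.079 for *Havcr2*, from -0.23 to 0.060 for *Cd96*, from -0.27 to 0.19 for *Cd274*, from -0.22 to 0.010 for *Cd200*, from -0.0084 to 0.50 for *Tox2*, from -0.34 to 0.17 for *Cd80*, from -0.21 to 0.069 for *Cd28*, from -0.12 to 0.078 for *Cd226*, from -0.22 to 0.0026 for *Pdcd1lg2* and from -0.098 to 0.26 for *Pvr*. The cause was not tested.

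Over all genes, 7 passed the threshold as reported, 0 without a mean-variance trend (469 at an unadjusted p under 0.05), 19 with sample quality weights, 18 with the melanocyte marker mean, 4 when scaled to *Cd3e* and *Cd4*, and from 0 to 8 without one replicate. Of the pathway genes, 1 passed with the melanocyte marker mean. *Tsc22d3*, the check gene that passed as reported, did not pass without a mean-variance trend (limma adjusted p = 0.221) or with the replicate block (0.137). It also did not pass without control replicate 3 (limma adjusted p = 0.0712) or without *Nr3c1* Foxp3-Cre replicate 1 (0.0639), 2 (0.140) or 3 (0.154). In the other alternatives it passed, and its log2 fold change was negative in all of them. When the replicate number entered as a block, 0 genes passed (275 at an unadjusted p under 0.05) and *Lag3* had a log2 fold change of -0.93 (unadjusted p = 0.0214, limma adjusted p = 1.0). Deviations from the group means had a mean correlation across genes of -0.157 for same-numbered libraries, beside 0.0784 for other pairs. Centering each group on its own mean ties these values to each other, so they cannot tell whether the numbers pair the samples. The effect of depth on low genes cannot be stated.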
